A study of Mus musculus with 20 samples.

Results

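Rest and 7 of its corepressors, Rcor1, Rcor2, Rcor3, Kdm1a, Hdac1, Hdac2 and Sin3a, were followed in the cerebellum of a knock-in mouse model of spinocerebellar ataxia type 3. The 8 genes are rows of a raw count table of 29200 genes, found by matching Ensembl identifiers to symbols. All 8 were among the 12153 genes tested, whose counts averaged 50 or more across the 20 libraries. The group was chosen by a difference of Rest between the genotypes at 12 months, so the 12-month genotype values of the members are given as a description with no test.

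The 304Q/304Q mice carried an interrupted repeat of 304 CAA/CAG codons in both murine Atxn3 alleles, under the endogenous regulatory elements of the gene. The WT/WT mice were their littermates. All mice were C57BL6/N, and cerebellum was collected from 5 mice of each genotype at 2 months and from 5 of each at 12 months. The knock-in mice belong to 1 line, so effects of the repeat and of the line cannot be told apart. The label of the wild-type mice names ataxin-2, where the study describes Atxn3. Total counts lay between 11385380 and 27636687 per library, and the deepest library was replicate 1 of the 304Q/304Q mice at 2 months. Markers of Purkinje and granule cells were present in every library. Atxn3, the targeted gene, had 278 ± 42.1 normalised counts at 2 months in WT/WT mice, against 192 ± 30.9 in the knock-in mice (SD, n = 5), and 222 ± 15.97 against 203 ± 17.6 at 12 months. Its log2 fold change was -0.54 at 2 months (adjusted p = 0.0916) and -0.13 at 12 months (adjusted p = 0.510, edgeR), and counts per gene do not show the repeat itself.

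REST, also called neuron-restrictive silencer factor, is a zinc finger repressor that binds a DNA element termed RE1 and keeps neuronal genes silent in non-neuronal cells and progenitors. One end of the protein recruits CoREST, encoded by Rcor1 and its paralogs Rcor2 and Rcor3, and the other end recruits the scaffold SIN3A. CoREST brings the histone demethylase LSD1, encoded by Kdm1a, and the histone deacetylases HDAC1 and HDAC2, which SIN3A complexes also hold. In mature neurons Rest is usually low, and its level has been studied in ageing and in polyglutamine disease.

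Rest lies on chromosome 5 at positions 77265491 to 77286432 on the plus strand (GRCm38), and none of its exons overlaps another annotated gene. Normalised counts, which are counts scaled to the mean effective library size, were 91.4, 89.0, 117, 62.7 and 98.0 in the WT/WT mice at 2 months. They were 77.0, 90.1, 99.9, 111 and 108 in the 304Q/304Q mice of that age. The 2 genotypes overlapped throughout their ranges at 2 months. At 12 months the WT/WT mice had 91.3, 115, 75.9, 113 and 45.5. The 304Q/304Q mice of 12 months had 151, 154, 145, 155 and 117. Every 304Q/304Q mouse of 12 months stood above every other mouse of the study, its lowest value of 117.4 being next to 117.1 in a WT/WT mouse of 2 months.

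Rcor2, a CoREST paralog known from neural progenitors, stood the other way. It lies on chromosome 19 at 7267325 to 7275225 on the plus strand and overlaps no annotated gene. Its normalised counts were 43.4, 33.5, 44.8, 77.6 and 65.4 at 2 months in WT/WT mice, against 49.3, 66.5, 59.3, 61.9 and 49.4 in 304Q/304Q mice. At 12 months they were 54.6, 72.4, 59.9, 72.2 and 51.1 in WT/WT mice, against 23.7, 43.2, 38.8, 20.7 and 19.1 in 304Q/304Q mice. The 304Q/304Q mice of 12 months lay below all mice of that age with WT/WT alleles. Rcor2 had a mean raw count of 50.6, only just above the minimum of 50, and between 19 and 96 counts in a library. Its mean passed the minimum through the other 3 groups.

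**Figure D1:**
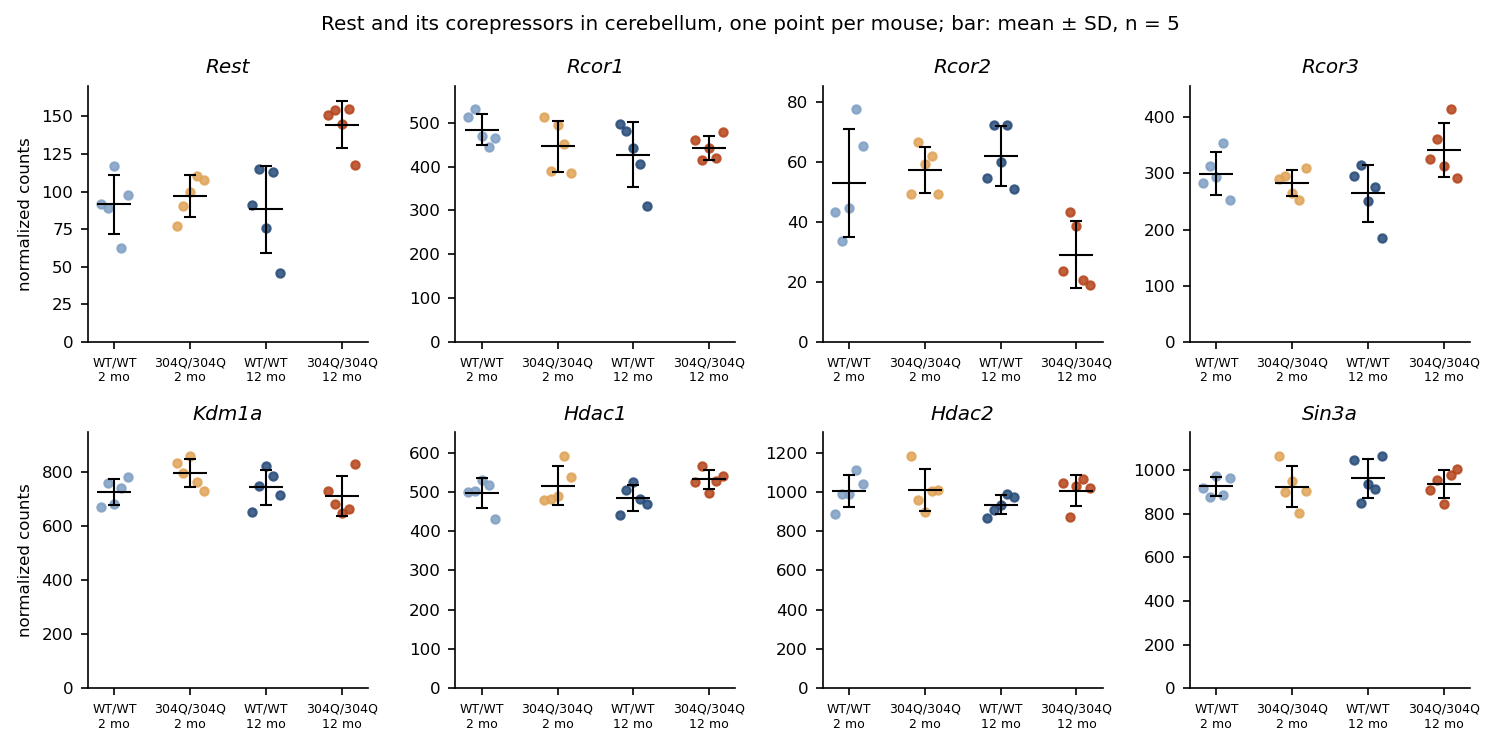
Normalised counts of the 8 genes on the vertical axis in each of the 4 groups, 1 point per mouse, with the mean and SD of 5 mice as the black bar. The 304Q/304Q mice of 12 months lie between 117 and 155 for Rest and between 19.1 and 43.2 for Rcor2, apart from the WT/WT mice of the same age, while the groups of the other 6 genes overlap.

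The other paralogs of CoREST had higher counts. Rcor1 (chromosome 12, 111039351 to 111115901, plus strand) had 485 ± 36.0 and 447 ± 58.3 normalised counts at 2 months, WT/WT first and 304Q/304Q second, and 428 ± 74.4 and 444 ± 27.2 at 12 months (SD, n = 5). Rcor3 (chromosome 1, 192098546 to 192138062, minus strand) had 299 ± 38.2 and 282 ± 22.9 at 2 months. At 12 months Rcor3 had 295, 315, 250, 276 and 185 in WT/WT mice, against 326, 361, 314, 414 and 292 in 304Q/304Q mice, so that the ranges overlapped between 292 and 315. Exons of Rcor1 overlap Gm48632 on the same strand, and exons of Rcor3 overlap 3 genes of the other strand, Gm10516, Gm26879 and Gm37055. The strand setting of the counting is not given in the sources used here, so reads of these genes could be shared.

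The enzymes and the second scaffold had higher mean counts over all libraries. Kdm1a (chromosome 4, 136550540 to 136602723, minus strand) had group means of 726 ± 49.0, 795 ± 52.7, 743 ± 64.8 and 710 ± 73.3 normalised counts, in the order WT/WT then 304Q/304Q at 2 months, then the same genotypes at 12 months. Hdac1 (chromosome 4, 129516104 to 129542713, minus strand) had 496 ± 38.1, 516 ± 48.6, 485 ± 32.3 and 532 ± 25.2 in that order. Hdac2 (chromosome 10, 36974544 to 37001889, plus strand) had 1004 ± 82.5, 1011 ± 108, 934 ± 48.4 and 1007 ± 77.9. Sin3a (chromosome 9, 57072040 to 57128366, plus strand) had 925 ± 43.1, 925 ± 95.2, 963 ± 90.2 and 938 ± 64.0, and its exons overlap 2700012I20Rik and Man2c1os of the other strand. In each of these 4 genes the 4 groups overlapped.

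To compare genes with each other, counts were divided by library size and by the total length of the exons of the gene. On this RPKM scale the mean level over the 20 libraries was 15.6 for Hdac2, 12.3 for Sin3a, 10.4 for Hdac1, 10.1 for Kdm1a, 5.58 for Rcor1, 1.53 for Rcor3, 1.12 for Rcor2 and 1.03 for Rest. Hdac2 exceeded Sin3a in 19 of 20 libraries and Sin3a exceeded Hdac1 in 19 of 20. Hdac1 and Kdm1a could not be separated, with Hdac1 higher in 11 of 20 libraries. Kdm1a exceeded Rcor1, and Rcor1 exceeded Rcor3, in all 20 libraries. At the low end Rcor3 was above Rcor2 in 15 of 20 libraries and Rcor2 above Rest in 13 of 20, so these neighbours overlapped. Rest was the lowest of the 8 in 3 groups, but at 12 months the 304Q/304Q mice had 1.41 ± 0.15 for Rest, above 0.65 ± 0.25 for Rcor2 (SD, n = 5). Among all tested genes, 4.40% had a lower level per length than Rest and 73.8% a lower level than Hdac2. The exon length of Rcor3, 13622 bases over all annotated transcripts, is the longest of the 8 and lowers its level on this scale.

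Of the summed level per length of the 3 CoREST paralogs, Rcor1 made up 68.8% ± 5.09, 66.7% ± 3.88, 65.7% ± 2.67 and 69.5% ± 4.34 in the order WT/WT then 304Q/304Q at 2 months, then both at 12 months (SD, n = 5). The share of Rcor2 was 13.5% ± 4.45, 15.5% ± 2.45, 17.4% ± 2.47 and 8.19% ± 3.07. The share of Rcor3 was 17.7% ± 1.86, 17.8% ± 2.55, 16.9% ± 0.84 and 22.3% ± 3.24. In the 304Q/304Q mice of 12 months Rcor2 thus held between 5.40% and 12.1% of the sum, below the 13.7% to 19.9% in WT/WT mice of that age. Of the summed level of Hdac1 and Hdac2, Hdac1 made up 39.1% to 40.7% in the 4 group means.

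**Figure D2:**
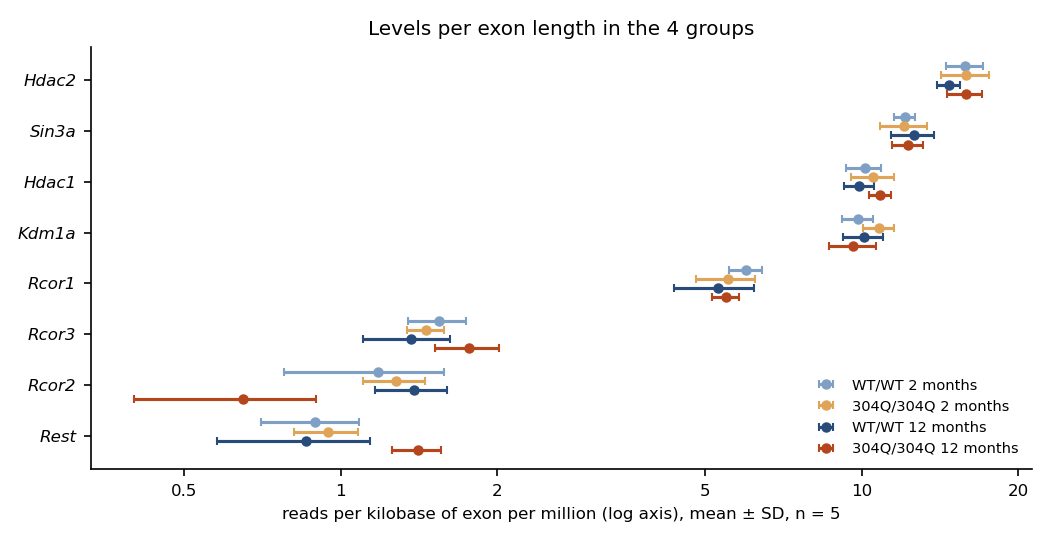
Levels in RPKM (normalised per exon length and library size) on a logarithmic horizontal axis, as mean and SD of 5 mice, for the 8 genes ordered by level and coloured by group. The enzymes and Sin3a lie near 10 or above, Rcor1 near 5, and Rcor3, Rcor2 and Rest between 0.65 and 1.76, with Rest above Rcor2 only in 304Q/304Q mice at 12 months.

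The genotype comparison at 2 months asks which genes differ before symptoms, and it did not enter the choice of the members. At that age 6 of 12153 genes (0.0494%) passed edgeR's quasi-likelihood test, with an adjusted p (Benjamini-Hochberg) no higher than 0.05, and 1.05% of genes had groups that did not overlap. Of the 8 members, 0 passed and 0 had groups that did not overlap, and DESeq2 also called 0. An unadjusted p under 0.05 was found in 0 of them, beside 5.55% of all tested genes. The log2 fold change of Rest was 0.08 with an SE of 0.20 (adjusted p = 0.976, edgeR), and that of Rcor2 was 0.10 with an SE of 0.23 (adjusted p = 0.975, edgeR). The widest difference was that of Kdm1a, 0.13 with an SE of 0.08 (adjusted p = 0.894, edgeR). The others ranged from -0.11 for Rcor1 to 0.06 for Hdac1.

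At 12 months 1523 genes (12.5%) passed the test between the genotypes, of which 636 were raised (5.23%) and 887 lowered (7.3%) in the knock-in mice, and for 375 (3.09%) the log2 fold change also reached 0.5 in size. Over all genes, 8.94% had groups that did not overlap. The group was chosen on this contrast, so these shares are background only and nothing is read from them for the members. Rest had a log2 fold change of 0.71 with an SE of 0.19, and Rcor2 had -1.10 with an SE of 0.24. As linear ratios the values were 1.63 for Rest and 0.465 for Rcor2. Rcor3 had 0.37 with an SE of 0.12, Hdac1 0.13 with an SE of 0.07, and Hdac2 0.11 with an SE of 0.07. Rcor1, Sin3a and Kdm1a stood at 0.05, -0.04 and -0.07. The median over the 8 was 0.08, beside -0.0039 over all tested genes.

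The GC trend of the libraries moved with genotype at both ages and with age in WT/WT mice. It was measured as the slope of log2 level on GC content over the tested genes, in log2 units per percent GC. At 12 months the slope ran from -0.0075 to 0.021 in the WT/WT mice and from -0.0071 to 0.0040 in the 304Q/304Q mice. The medians were 0.014 and -0.0023. At 2 months it ran from -0.020 to 0.0075 and from -0.014 to 0.0040, with medians of -0.013 and 0.00057. Rest exons hold 47.2% GC and Rcor2 exons 60.3%, beside a median of 50.8% for tested genes. With the GC and length trends of each library removed, an alternative chosen after seeing the data, the log2 fold change was 0.66 for Rest and -1.01 for Rcor2. With 3 surrogate variables it was 0.50 by edgeR and 0.51 by DESeq2 for Rest, and -1.27 by both for Rcor2. Leaving out the WT/WT mouse with the lowest Rest count, replicate 5, gave 0.54 for Rest.

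**Figure D3:**
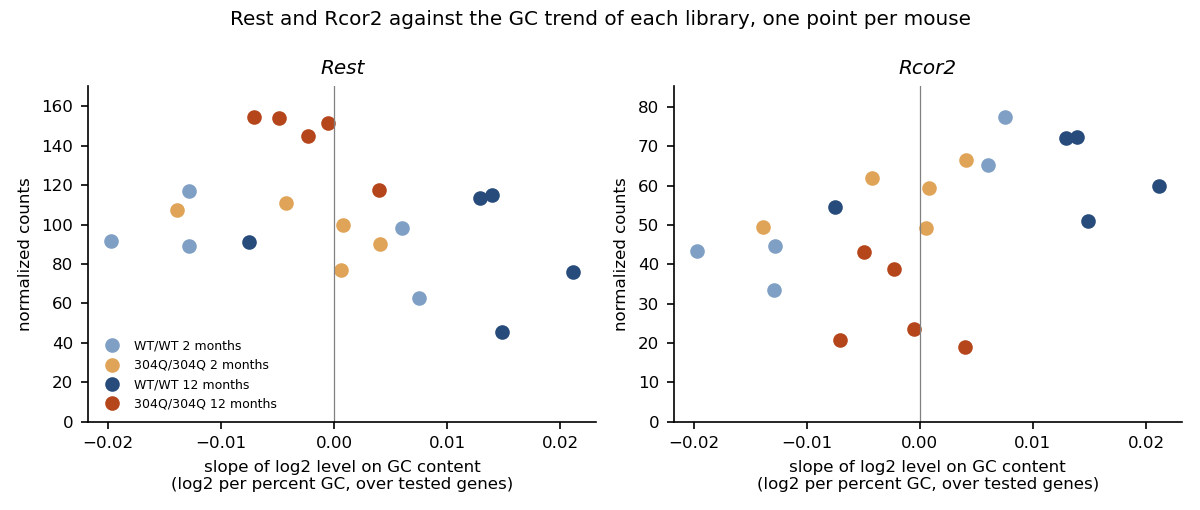
Normalised counts of Rest (left) and Rcor2 (right) on the vertical axis against the slope of log2 level on GC content of each library on the horizontal axis, 1 point per mouse, coloured by group. The 304Q/304Q mice of 12 months have slopes from -0.0071 to 0.0040, within the range of the 2-month mice, and 4 of the 5 WT/WT mice of 12 months have slopes from 0.013 to 0.021.

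Marker genes of other cells moved as well, and in bulk tissue fewer cells of a type and less RNA per cell cannot be told apart. Of the 6 oligodendrocyte markers 3 fell at 12 months, when 7.3% of all tested genes fell. The summed normalised counts of the 6 were 71650 to 81680 in WT/WT mice, against 46910 to 65070 in 304Q/304Q mice. Of the 5 Purkinje cell markers 4 fell, with sums of 76450 to 86960 and 62960 to 69460. Of the 6 astrocyte and Bergmann glia markers 3 fell, with sums of 34400 to 36250 and 31680 to 33620, and of the 4 interneuron markers 2 fell, with sums of 13850 to 14690 and 11910 to 12730. Of the 3 blood markers 2 fell, with sums of 1475 to 3228 and 1266 to 1431. None of these markers was at 0 in any library. Of the 5 endothelial markers 1 fell, of the 5 tested microglia markers 1 rose, and the granule cell, precursor, mural and meninges markers did not pass. Choroid plexus sums reached 29430 in a WT/WT and 20960 in a 304Q/304Q mouse, with Folr1 and Aqp1 at 0 in some libraries. Of the 4 skeletal muscle markers 2 were tested and rose, with a sum of 2890 in 1 of the 304Q/304Q mice, a median of 28.8 in that group and at most 45.6 in WT/WT mice, and Myh4, Ckm and Tnnt3 were at 0 in some libraries. The 2 markers of dividing cells lay under the minimum. At 2 months no marker of any list passed, but 2 sums already differed without overlap. Oligodendrocyte sums were then 76880 to 88460 in WT/WT mice, against 66600 to 75840 in 304Q/304Q mice. Interneuron sums were 13880 to 14510, against 13130 to 13490, and the sums of the other lists overlapped. The part of these cell markers in the values of Rest and Rcor2 was not tested.

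With age, the corepressors were tested in each genotype, although the 12-month mice are the ones on which the group was chosen. The 2 age contrasts each share mice with the genotype contrasts. In WT/WT mice 1398 genes (11.5%) passed between 2 and 12 months, 739 higher (6.08%) and 659 lower (5.42%). Of the 7 corepressors 0 passed by edgeR or by DESeq2, and 0 had an unadjusted p under 0.05, beside 27.5% of all tested genes. Their log2 fold changes ranged from -0.18 for Rcor1 (adjusted p = 0.270, edgeR) to 0.23 for Rcor2 (adjusted p = 0.544, edgeR). That of Rest, given with no test, was -0.05 with an SE of 0.20.

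In 304Q/304Q mice 882 genes (7.26%) passed with age, 374 higher (3.08%) and 508 lower (4.18%), and 7.80% of genes had groups that did not overlap. Rcor2 had a log2 fold change of -0.98 with an SE of 0.24, with every mouse of 12 months below every mouse of 2 months, and -1.17 to -0.86 with any 1 library of this contrast left out. These values are a description, since Rcor2 reached the minimum count through the groups in which it was higher. With no filter on counts Rcor2 had -0.99, also a description. Rcor3 had a log2 fold change of 0.27 (unadjusted p = 0.0347, adjusted p = 0.211, edgeR). Kdm1a had -0.16 (unadjusted p = 0.0407, adjusted p = 0.231, edgeR), and the other 4 lay between -0.014 and 0.04. Over all tested genes 19.1% had an unadjusted p under 0.05 in this contrast. Rest, with no test, had a log2 fold change of 0.58 with an SE of 0.19, and its groups did not overlap. The genotype difference at 12 months less that at 2 months, also with no test, was 0.63 with an SE of 0.27 for Rest and -1.21 with an SE of 0.33 for Rcor2.

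**Figure D4:**
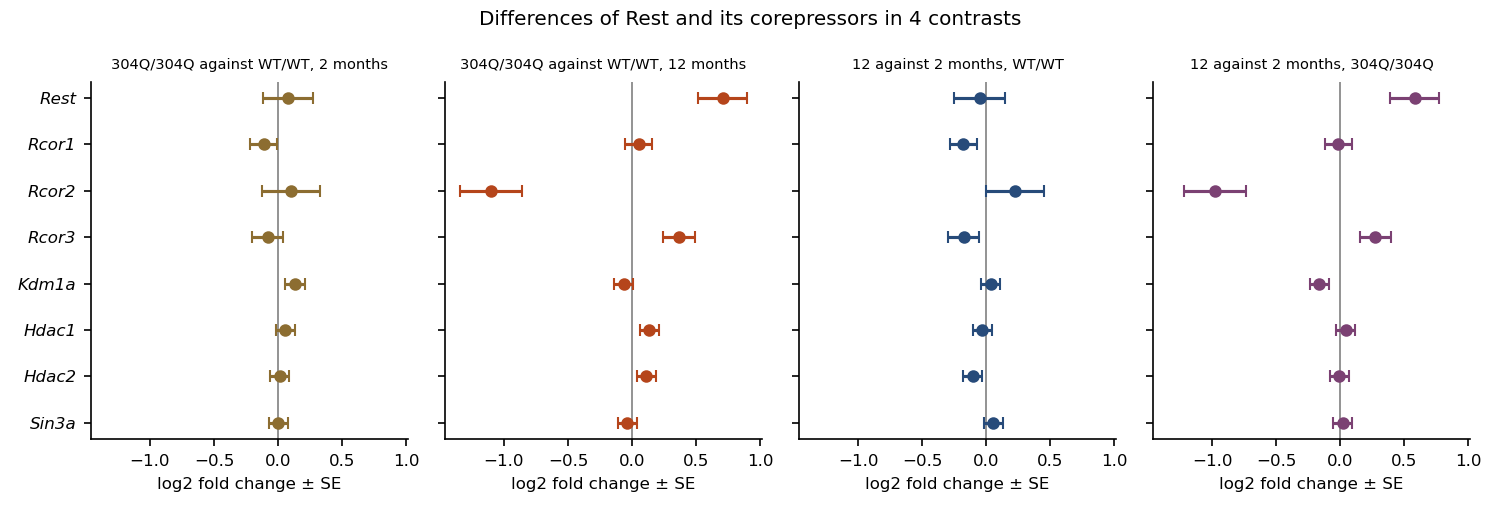
Log2 fold changes with SE on the horizontal axis for the 8 genes in the 4 contrasts, 5 mice per group. At 2 months and with age in WT/WT mice every value lies between -0.18 and 0.23, while Rest lies at 0.71 and 0.58 and Rcor2 at -1.10 and -0.98 in the 2 contrasts that hold the 304Q/304Q mice of 12 months.

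Of 19 listed partners of REST and CoREST, all tested, 2 rose and 0 fell at 12 months, when 12.5% of all tested genes passed, and the median log2 fold change was 0.02, beside -0.0039 over all tested genes. Zmym2, a zinc finger subunit of the LSD1 and CoREST complex, had 1274, 971, 912, 1033 and 1041 normalised counts in WT/WT mice of 12 months, against 1323, 1202, 1365, 1475 and 1320 in 304Q/304Q mice. It rose by 0.35 with an SE of 0.08 (adjusted p = 0.00525, edgeR), although replicate 1 of the WT/WT mice lay within the range of the other group. Phf21a, the histone reader BHC80 of the same complex, rose by 0.24 with an SE of 0.05 (adjusted p = 0.00508, edgeR), from 1135 ± 57.7 to 1336 ± 58.6 with no overlap (SD, n = 5). With age in WT/WT mice Zmym2 fell by 0.25 (adjusted p = 0.0492, edgeR), which became -0.03 with the GC and length trends removed. Ehmt2, the histone H3 lysine methyltransferase G9a, rose by 0.24 with age in WT/WT mice (adjusted p = 0.00851, edgeR). In 304Q/304Q mice 0 partners passed with age by edgeR or DESeq2, and 3 had an unadjusted p under 0.05, beside 19.1% of all tested genes. Without the GC and length trends the 12-month difference of Zmym2 was 0.16 (adjusted p = 0.0816, edgeR), and the age difference of Ehmt2 was 0.14 (adjusted p = 0.0615, edgeR). The 3 related catalytic subunits, Hdac3, Hdac8 and Kdm1b, did not pass in any of the 4 contrasts.

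Of the 16 listed SIN3 complex subunits 15 were tested and 0 passed between the genotypes at either age by edgeR or DESeq2. Over all tested genes 12.5% passed at 12 months by edgeR. At 2 months 1 subunit had an unadjusted p under 0.05, beside 5.55% of all tested genes, and at 12 months 1, beside 27.3%. Sap30l, a SAP30-like subunit, rose by 0.39 with an SE of 0.12 with age in WT/WT mice (adjusted p = 0.0414, edgeR), a call lost under 13 of 20 alternatives, with 0.08 once the GC and length trends were removed. Of 16 listed regulators of REST, which act on its stability, splicing or localisation, 1 passed at 12 months between the genotypes, beside 12.5% of all tested genes. Srrm3, a splicing factor related to the one that alters Rest transcripts in neurons, fell by 0.24 with an SE of 0.07 (adjusted p = 0.0294, edgeR), from 1042 ± 89.6 to 880 ± 34.5 normalised counts (SD, n = 5), with overlap, and lost its call under 7 of 20 alternatives. Hap1, the huntingtin-associated protein 1, rose with age by 0.37 in WT/WT (adjusted p = 0.00310, edgeR) and by 0.34 in 304Q/304Q mice (adjusted p = 0.00481, edgeR), without overlap in either. Dctn1, the largest dynactin subunit, rose by 0.21 with age in WT/WT mice (adjusted p = 0.0262, edgeR), a call lost under 10 of 20 alternatives, with 0.12 once those trends were removed.

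Of 38 listed REST target genes, mostly neuronal genes with a known role of REST in their silencing, 33 were tested. At 2 months 0 of them passed by edgeR, and Sez6 alone passed by DESeq2. An unadjusted p under 0.05 was found in 2 of them, beside 5.55% of all tested genes. At 12 months 5 rose and 3 fell, beside 5.23% and 7.3% of all tested genes, 18 had a log2 fold change above 0 and 15 below it, and the median was 0.01, beside -0.0039 over all tested genes. Sez6, a membrane protein of dendrites and synapses, had 2484, 2783, 2745, 2570 and 2814 normalised counts in WT/WT mice, against 3837, 3772, 3498, 3810 and 3359 in 304Q/304Q mice. All 304Q/304Q mice of that age exceeded the WT/WT mice, and the log2 fold change was 0.45 with an SE of 0.05 (adjusted p = 9.56e-07, edgeR). At 2 months its log2 fold change was 0.24 with an SE of 0.05 and no overlap (adjusted p = 0.0665, edgeR, and 0.00436 by DESeq2).

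Scn2a, the sodium channel Nav1.2, rose by 0.40 with an SE of 0.09 at 12 months (adjusted p = 0.00435, edgeR). It had 5464, 4547, 3828, 4317 and 3978 normalised counts in WT/WT mice of that age, against 5661, 5625, 5181, 6667 and 5983 in 304Q/304Q mice. The ranges overlapped at replicate 1 of the WT/WT mice, the library of that group with a negative GC slope. Pcsk2, a prohormone convertase, rose by 0.22 (adjusted p = 0.00525, edgeR), L1cam, an axonal adhesion molecule, by 0.20 (adjusted p = 0.0236, edgeR) and Cplx1, a regulator of vesicle fusion, by 0.14 (adjusted p = 0.0259, edgeR). Calb1, the calcium buffer calbindin, which also stands on the Purkinje cell list, fell by 0.26 (adjusted p = 0.00166, edgeR). Ina, a neurofilament protein, fell by 0.22 (adjusted p = 0.0152, edgeR) and Scg2, a granule protein, by 0.19 (adjusted p = 0.00905, edgeR). Of these 8 genes Sez6, Calb1 and Scg2 had groups without overlap, beside 8.94% of all tested genes. The 8 were named because they passed this contrast, so nothing is read from that count. Without the GC and length trends Pcsk2 had 0.11 (adjusted p = 0.270, edgeR) and Ina -0.15 (adjusted p = 0.101, edgeR), while Calb1 had -0.42 and Cplx1 0.25. The calls of Cplx1, Ina and L1cam were lost under 8, 6 and 4 of 20 alternatives.

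**Figure D5:**
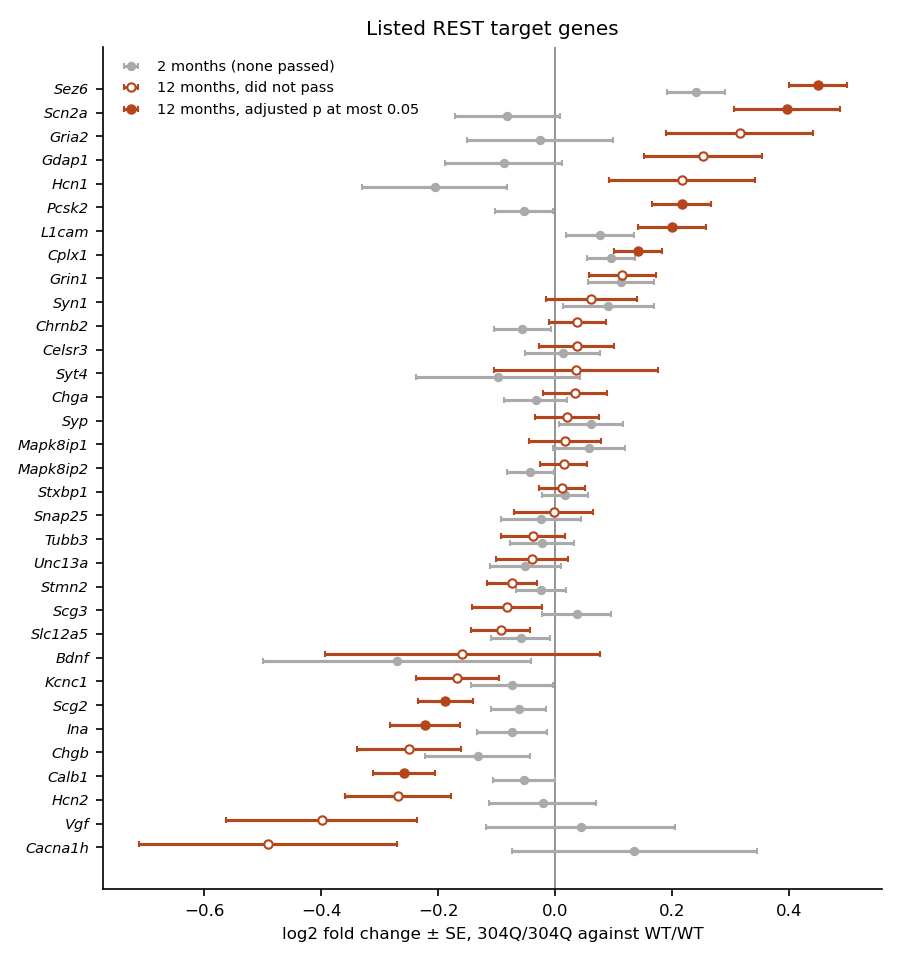
Log2 fold changes between 304Q/304Q and WT/WT mice with SE on the horizontal axis for the 33 tested target genes, at 2 months in grey and at 12 months in red, with filled red points for genes that passed. The values at 12 months run from -0.49 to 0.45 on both sides of 0, with 5 filled points above and 3 below.

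With age in WT/WT mice 1 of the 33 target genes rose and 3 fell, beside 11.5% of all tested genes that passed in either direction. Sez6 rose by 0.16 (adjusted p = 0.0376, edgeR), Scn2a fell by 0.50 (adjusted p = 0.00103, edgeR), Gria2, a subunit of AMPA receptors, fell by 0.41 (adjusted p = 0.0345, edgeR), and Chrnb2, a nicotinic receptor subunit, fell by 0.22 (adjusted p = 0.00676, edgeR). In 304Q/304Q mice 2 rose and 2 fell, beside 7.26% of all tested genes. Sez6 rose by 0.37 (adjusted p = 2.39e-05, edgeR) and Mapk8ip2, a scaffold of kinases, by 0.15 (adjusted p = 0.0247, edgeR), while Calb1 fell by 0.29 (adjusted p = 0.00077, edgeR) and Scg2 by 0.16 (adjusted p = 0.0316, edgeR). With the GC and length trends removed, the age difference in WT/WT mice was -0.31 for Scn2a, -0.20 for Gria2 (adjusted p = 0.108, edgeR) and 0.07 for Sez6 (adjusted p = 0.423, edgeR). The call of Scg2 with age in 304Q/304Q mice was lost under 10 of 20 alternatives, and that of Mapk8ip2 under 5. With age in WT/WT mice the calls of Sez6 and Gria2 were lost under 14 and 11 of 20.

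RE1-like sequences were searched in RefSeq promoters (GRCm38.p6), windows of 300 bases from 250 before to 50 after a transcript start. The motif searched was the left RE1 half-site CAGCACC, 2 free bases and the right half-site GGACAG, on both strands, with at most 1 mismatch among its 13 fixed letters. It matched 61 of 32851 promoters (0.186%), belonging to 57 genes. A promoter was given for 6 of the 8 members, and none of the 6 held a match. Rest and Hdac1 had no entry. Of the 32 tested genes with a match, 3 rose and 3 fell at 12 months (18.8%), beside 12.1% of the 9409 tested genes whose promoter held none. Of 8 tested genes with an exact match 2 rose and 2 fell. With up to 2 mismatches, 20 of 252 tested genes with a match rose and 11 fell (12.3%), beside 12.1% of those without. A match is a description of the letters in this window and not a binding site. The windows below are those of the 6 that passed at 12 months and of the 3 listed target genes with a match, each on the strand of the gene, with the motif in capitals.
Fam163b, chr2:27142550-27142594, minus strand: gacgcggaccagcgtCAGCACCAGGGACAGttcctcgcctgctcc
Lca5, chr9:83441275-83441319, minus strand: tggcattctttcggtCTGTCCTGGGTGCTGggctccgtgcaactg
Hrh3, chr2:180104561-180104605, minus strand: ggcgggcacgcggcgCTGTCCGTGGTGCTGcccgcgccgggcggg
Ogdhl, chr14:32321901-32321945, plus strand: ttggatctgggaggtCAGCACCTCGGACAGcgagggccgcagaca
Clasp2, chr9:113812550-113812594, plus strand: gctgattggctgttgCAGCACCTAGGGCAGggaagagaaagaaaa
Dner, chr1:84696340-84696384, minus strand: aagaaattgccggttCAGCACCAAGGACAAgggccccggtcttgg
Gria2, chr3:80802976-80803020, minus strand: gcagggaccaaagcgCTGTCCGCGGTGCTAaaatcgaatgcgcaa
Celsr3, chr9:108825905-108825949, plus strand: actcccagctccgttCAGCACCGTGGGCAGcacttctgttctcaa
Syn1, chrX:20921119-20921163, minus strand: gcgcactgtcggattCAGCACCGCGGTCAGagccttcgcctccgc

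The first 4 of these sequences matched every fixed letter and the other 5 had 1 mismatch. The motif of Fam163b, a small membrane protein gene, was centred 95 bases before the start. Fam163b had 277 ± 53.6 and 371 ± 31.3 normalised counts at 2 months, WT/WT first and 304Q/304Q second, and 948 ± 132 and 1859 ± 170 at 12 months (SD, n = 5). It rose by 0.97 with an SE of 0.10 between the genotypes at 12 months (adjusted p = 5.86e-07, edgeR), and with age by 1.77 in WT/WT (adjusted p = 5.35e-10, edgeR) and by 2.32 in 304Q/304Q mice (adjusted p = 7.93e-13, edgeR). Clasp2, a microtubule plus-end protein, rose by 0.31 at 12 months (adjusted p = 0.000136, edgeR), and Lca5, a ciliary protein, by 0.52 (adjusted p = 0.0459, edgeR). The difference of Clasp2 was 0.19 with the GC and length trends removed.

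Dner, a Notch ligand made in Purkinje cells, fell by 0.32 at 12 months (adjusted p = 8.74e-05, edgeR), with 7704, 7814, 7328, 7056 and 6993 normalised counts in WT/WT mice, against 5604, 6133, 5798, 6123 and 5853 in 304Q/304Q mice. Ogdhl, a mitochondrial oxoglutarate dehydrogenase-like enzyme, fell by 0.29 (adjusted p = 0.00359, edgeR) and Hrh3, the histamine H3 receptor, by 0.37 (adjusted p = 0.0493, edgeR). The calls of Lca5 and Hrh3 stood close to the threshold and were lost under 11 and 15 of 20 alternatives, among them 7 and 8 of the 10 left-out libraries, and with the GC and length trends removed their adjusted p was 0.0629 and 0.124 (edgeR). The listed targets with a match gave log2 fold changes at 12 months of 0.31 for Gria2 (adjusted p = 0.104, edgeR), 0.04 for Celsr3 (adjusted p = 0.749, edgeR) and 0.06 for Syn1 (adjusted p = 0.652, edgeR).

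The genes whose log2 level followed that of Rest most closely over the 20 libraries were Elac1, Armcx5, Hs6st2, Fam169a and Lrp11, with Pearson r of 0.81, 0.81, 0.80, 0.80 and 0.79. Over deviations from the 4 group means, which leave out the differences between groups, they were Armcx5, Sppl2a, Fam169a, Elmod2 and Ghitm, with r of 0.83, 0.77, 0.77, 0.77 and 0.77. Exon GC content of these 8 genes lay between 39.0% and 57.0%, and the libraries share their GC trends. Among the corepressors Rcor3 had the highest r with Rest, 0.63 over libraries and 0.44 over deviations, and Rcor2 had -0.48 over libraries and 0.13 over deviations.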

How the data were processed

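Cerebellar polyA RNA of 20 mice was sequenced as paired-end TruSeq Stranded libraries. The deposited values are raw counts per Ensembl gene, which the authors made with STAR and Rsubread on GRCm38, Ensembl v91. The version of STAR is given as 2.4.5b in the submitters' processing notes and otherwise in the study's methods. The strand setting is not given in the sources used here. Symbols were found for 29150 of 29200 identifiers (GENCODE annotation of GRCm38).

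Counts were tested with edgeR 4.0.16 (quasi-likelihood, TMM scaling, 1 term per group, R 4.3.3) over all 20 libraries and the 12153 genes whose counts averaged 50 or more, which held 99.3% of all counts. A gene passed when its p adjusted after Benjamini and Hochberg was 0.05 or less. Log2 CPM used a prior count of 2. The labels call the samples replicates of a group, and the study gives 5 mice per group and age. In simulated counts of 12153 genes 198 of 200 genes changed by 1 on the log2 scale were found, with 14 others. That change is larger than most differences given here, and the simulated counts held no GC trend. The share found therefore does not apply to smaller differences. The closest pair of libraries of a group differed by more than sampling noise (chi-square of 4.43 per degree of freedom). Replicate numbers were not used to pair the samples in the main fit. Alternatives were DESeq2 1.42.0, surrogate variables (sva 3.50.0), other scaling and filters, a replicate block, each library left out, and removed GC and length trends.

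The members, lists and tests were chosen with earlier results of these data known. Named genes are the members, up to 3 rising and 3 falling genes of each list per contrast (5 for targets), up to 5 each way with the RE1-like motif at 12 months, Atxn3, and the 5 genes most like Rest on each measure.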

Additional observations from a re-analysis of the deposited data

Results flagged for a closer look

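In 32 genes and 4 groups, 128 groups of 5 mice in all, the highest and lowest mouse were compared with the others as the gap to the nearest mouse over the range of the group. Chance passes the limit of 0.71 in about 1 of 20 groups, and 4 groups passed it. Rest in 304Q/304Q mice at 12 months had its lowest mouse, replicate 5 with 117 normalised counts, at a gap of 0.739 of the range. Hdac2 in the same group had its lowest mouse, replicate 2 with 872, at 0.758. Chrnb2 in WT/WT mice at 12 months had its highest mouse, replicate 4 with 2004, at 0.831. Fam163b in 304Q/304Q mice at 2 months had its lowest mouse, replicate 4 with 316, at 0.875.

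Among the named genes outside the members, 3 passed edgeR's interaction term, with p adjusted over all tested genes. Most of these genes were named because they passed a contrast of the same mice. How many of all tested genes passed the term is not given here. As 12 months less 2 months, the genotype difference changed on the log2 scale by -0.28 for Dner (adjusted p = 0.0338, edgeR). It changed by 0.27 for Pcsk2 (adjusted p = 0.0475, edgeR) and by 0.48 for Scn2a (adjusted p = 0.0494, edgeR), both close to the threshold.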

How the results depend on the processing

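Of 632 alternative values of the members, 600 kept their direction or stayed within 1 SD and 32 changed sign in values that did not pass. The 12-month log2 fold change of Rest lay between 0.50 and 0.72 over 9 alternatives and between 0.54 and 0.82 with each library left out. Rest and Rcor2 have libraries under 50 counts, so a minimum of 50 in every library removed both. The 12-month values are a description in every fit, because this contrast chose the group. That of Rcor2 lay between -1.27 and -1.01 over 9 alternatives and between -1.30 and -0.99 with each library left out. For Rcor3 it lay between 0.23 and 0.37 over 10 alternatives and between 0.27 and 0.44 with each library left out. With age in 304Q/304Q mice the log2 fold change of Rcor2, also a description, lay between -1.23 and -0.98 over 9 alternatives. Listed genes that passed numbered 1 at 2 months by DESeq2 and by both surrogate-variable fits. At 12 months they numbered 7 with no filter and 8 to 17 with a library left out, 17 without WT/WT replicate 1. With age in WT/WT mice, against 9, they numbered 3 with surrogate variables by either tool and with GC and length trends removed, 4 in the fit of only the groups compared, and 4 to 23 with a library left out. They were 4, 4, 5, 15 and 16 without replicates 1 to 5 of 2 months, and 23, 4 and 4 without replicates 1, 3 and 5 of 12 months. With age in 304Q/304Q mice, against 5, they numbered 9 (DESeq2) and 8 (edgeR) with surrogate variables, 8 with GC and length trends removed, 3 with no filter and 3 to 7 with a library left out, 3 without replicate 2 or 4 of 12 months. The RE1-like motif matched 12 promoters with 0 mismatches and 632 with 2. Over all genes, 2-month calls were 6 in the fit used and 10 to 55 under 5 alternatives, and age calls in WT/WT mice were 726 to 2542, the latter without replicate 1 of 12 months. Deviations of samples with the same number had r over 0.1 in 4 of 20 pairs, with r from -0.323 to 0.551. The 2 highest, 0.551 and 0.271, were those of replicates 1 and 4 between the ages in WT/WT mice. With the replicate number as a block, listed genes that passed numbered 0, 11, 6 and 5, in the order 2 months, 12 months, age in WT/WT and age in 304Q/304Q mice, and the log2 fold change of Rest was 0.72. Of 1920 alternative values of the other named genes, 148 lost a call, 15 gained one and 67 changed sign without a call. Counts of Rest and Rcor2 under 200 in a library limit their precision.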
